A study of Mus musculus with 3 samples.

Results

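The narrowest H3K4me1 enriched regions of cytokine treated mouse islets, those of a single 200 bp bin, were chosen by width alone: every listed region on chromosomes 1 to 19 whose end minus start was exactly 200 bp. They numbered 1923 of 65124 autosomal regions (2.95%), and the other 63201 regions, of 400 bp or more, are called wider regions. The 1923 regions covered 384.6 kb, or 0.277% of the autosomal length under any region. A further 13 of the 526 regions on the X chromosome and 2 elsewhere had this width and were left out.

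Pancreatic islets hold the hormone-secreting cells of the pancreas, chiefly β-cells, which make insulin. The islets were taken from CD1 mice aged 8 to 12 weeks by the sample labels, whereas the paper names the strain ICR and an age of 8 to 10 weeks. They were cultured for 4 days with the cytokines IFNγ at 1.6 ng/ml, TNFα at 0.16 ng/ml and IL-1β at 0.25 ng/ml. The chromatin of 4 immunoprecipitations was pooled into 1 sequencing library, and untreated islets were not analysed here for this mark. All 10 islet endocrine marker genes, among them Ins1, Ins2 and Gcg, had at least 1 region assigned, against 1 of 6 leukocyte, 4 of 5 acinar, 3 of 3 duct, 4 of 4 endothelial and 3 of 4 stromal marker genes, and regions of 1 cell type cannot be told apart from those of another in this mixture. A region was assigned to 15234 protein-coding genes in all, so these counts do not measure the make-up of cell types. The list gave positions alone, so the read depth of each region is unknown.

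H3K4me1, the monomethylation of lysine 4 of histone 3, is laid down mainly by methyltransferases of the trithorax group and marks enhancers and the flanks of promoters. At active transcriptional start sites (TSS) it commonly gives way to trimethylation of the same residue, which leaves monomethylated nucleosomes on either side. A nucleosome with its linker DNA is about as long as a bin of the kind called here. Every region edge fell on a grid of 200 bp, so a region of a single bin is the smallest stretch that such a list can hold.

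Examples of members are shown from 3 kinds: those assigned to genes of cytokine signalling (10 of 1923), the 2 farthest from any other region, which are exceptions since 98.6% of members had a region 1000 to 1400 bp away, and the extremes of base composition. All sequences are the mm9 reference on the plus strand, 200 bases long, and capitals mark matches to the short motifs searched for, which were found in Jak1 and Med15 alone among these 8. The first 4 are those closest to a TSS of a signalling gene among members outside UTRs, namely Ifngr2, a chain of the IFNγ receptor, Il1r1, the receptor of IL-1, Irf2, an interferon regulatory factor, and Jak1, a kinase bound to cytokine receptors.
Ifngr2, chr16:91546601-91546800: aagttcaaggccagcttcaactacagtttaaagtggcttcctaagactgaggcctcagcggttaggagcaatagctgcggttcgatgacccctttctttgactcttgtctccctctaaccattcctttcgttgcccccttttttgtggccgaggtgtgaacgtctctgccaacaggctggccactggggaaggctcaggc
Il1r1, chr1:40325601-40325800: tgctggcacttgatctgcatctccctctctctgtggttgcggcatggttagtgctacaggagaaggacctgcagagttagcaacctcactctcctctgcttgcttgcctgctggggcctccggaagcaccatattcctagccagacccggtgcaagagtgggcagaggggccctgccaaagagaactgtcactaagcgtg
Irf2, chr8:47819201-47819400: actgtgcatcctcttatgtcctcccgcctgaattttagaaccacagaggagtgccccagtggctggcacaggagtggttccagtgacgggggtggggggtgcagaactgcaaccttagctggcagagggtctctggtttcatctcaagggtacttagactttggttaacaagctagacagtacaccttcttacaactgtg
Jak1, chr4:100928401-100928600: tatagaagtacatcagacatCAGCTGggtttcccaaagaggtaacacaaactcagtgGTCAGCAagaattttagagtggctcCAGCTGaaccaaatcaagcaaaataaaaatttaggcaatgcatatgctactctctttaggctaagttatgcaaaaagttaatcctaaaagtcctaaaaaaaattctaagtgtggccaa
The next pair, in an intron of Nebl, which encodes the actin-binding protein nebulette, and upstream of Csf2ra, a receptor chain for GM-CSF, lay farthest from any other region.
Nebl, chr2:17549401-17549600: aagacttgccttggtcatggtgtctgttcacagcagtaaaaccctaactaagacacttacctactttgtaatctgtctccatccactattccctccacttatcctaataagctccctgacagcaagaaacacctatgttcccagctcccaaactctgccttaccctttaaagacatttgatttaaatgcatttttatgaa
Csf2ra, chr19:61342201-61342400: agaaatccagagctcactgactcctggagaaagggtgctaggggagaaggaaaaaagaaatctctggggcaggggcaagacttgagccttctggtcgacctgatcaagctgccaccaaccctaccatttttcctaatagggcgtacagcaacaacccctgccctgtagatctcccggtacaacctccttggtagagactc
The last pair, upstream of Med15, a Mediator subunit, and of 9830001H06Rik, had the lowest and the highest GC content, 25.5% and 75%.
Med15, chr16:17723401-17723600: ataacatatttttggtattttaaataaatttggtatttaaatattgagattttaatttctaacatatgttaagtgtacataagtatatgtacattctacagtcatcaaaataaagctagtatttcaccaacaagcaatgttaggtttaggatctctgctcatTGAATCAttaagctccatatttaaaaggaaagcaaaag
9830001H06Rik, chr2:156905201-156905400: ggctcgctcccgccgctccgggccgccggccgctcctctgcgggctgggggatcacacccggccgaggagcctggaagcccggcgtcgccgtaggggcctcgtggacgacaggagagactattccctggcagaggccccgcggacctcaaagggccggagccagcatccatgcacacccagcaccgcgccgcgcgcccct
The Jak1 bin held 2 matches of the E-box CAGCTG and 1 of the MARE core, and the Med15 bin held 1 of AP-1. The Ifngr2 bin lay 617 bp upstream of the TSS, outside any annotated gene, and a region of 3600 bp began 1200 bp beyond it on the other side of that TSS. The Il1r1 bin was intronic, 2270 bp from the closest TSS, with a region of 22000 bp starting 1200 bp away. The Irf2 bin was 5799 bp upstream of that gene in an intron of a transcript that is not protein-coding, 1200 bp from a region of 800 bp, and the Jak1 bin was intronic and 1200 bp from a region of 6800 bp.

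The gap of 1200 bp seen in these examples was that of nearly all members. For 1762 of the 1923 (91.6%, 95% exact binomial interval 90.3 to 92.8) the nearest other region began or ended exactly 1200 bp away, edge to edge. This was so for 1908 of the 63201 wider regions (3.02%, 2.89 to 3.16), a difference of 88.6 percentage points (95% Newcombe interval 87.3 to 89.8). A gap counts for the regions at both its ends, so the wider regions with such gaps include the members' own neighbours. The 3.02% is therefore not a rate apart from the members. Another 79 members had a gap of 1000 bp and 55 one of 1400 bp, so that 1896 (98.6%) fell between 1000 and 1400 bp, as did 8.42% of wider regions and 2.89% of the uncovered bins of the same chromosomes. No member had a gap under 1000 bp, and a count of 0 allows a share of up to 0.156% (3 counts of the total, a bound used here for counts of 0 in place of the exact interval, which reaches 0.192%), whereas 7.79% of wider regions did. All intervals given here cover counting error only, because 1 library has no replicate.

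**Figure D1:**
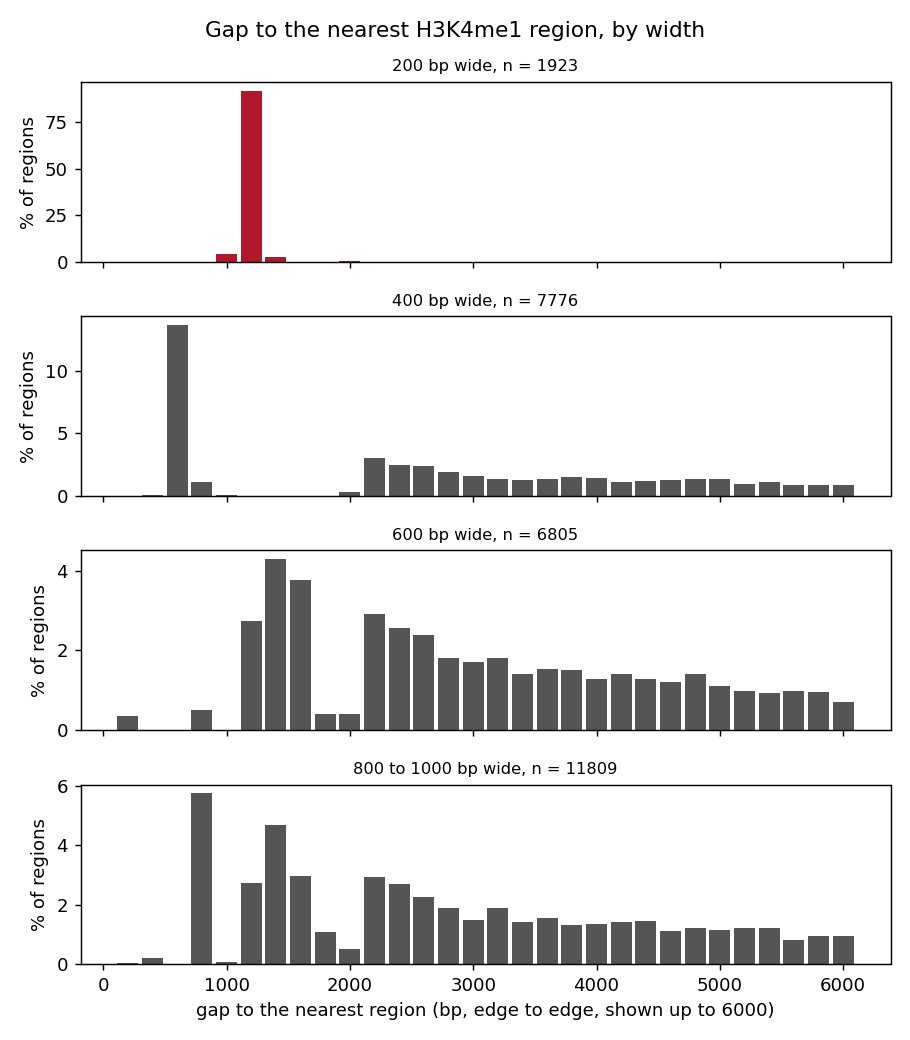
Share of regions (y axis, percent, a separate scale in each panel) against the edge-to-edge gap to the nearest region (x axis, bp, up to 6000) for regions of 200, 400, 600 and 800 to 1000 bp on chromosomes 1 to 19. The 200 bp regions stand at 1200 bp in 91.6% of cases, whereas 13.7% of the 400 bp regions stand at 600 bp. Smaller peaks are seen at 1400 bp for the 600 bp regions (4.29%) and at 800 and 1400 bp for those of 800 to 1000 bp (5.75% and 4.69%). Most gaps of these wider classes exceed 2000 bp.

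The median gap was 1200 bp for members (order-statistic interval 1200 to 1200) and 5200 bp for wider regions (5000 to 5200). The regions just past the width limit were not like them: those of 400 bp, 7776 in number, had a median gap of 7400 bp, none stood exactly 1200 bp from a neighbour, and 1062 (13.7%) stood at exactly 600 bp. On the farther side the members were not close to other regions, with a median gap of 10000 bp (9000 to 10800). Which step of the enrichment call or which feature of the chromatin goes with the fixed gap was not tested. The settings of the call are not given in the sources used here. The methods describe a later merging of loci from both conditions and a filter on low enrichment, and whether the deposited list precedes these steps is not stated, so what a single-bin region and its gap reflect cannot be told apart from such processing.

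The members were thus satellites of a single larger region more often than links between regions. A neighbour within 1400 bp was present on 1 side alone for 1829 members (95.1%) and on both sides for 67 (3.48%). The neighbour lay at lower coordinates for 950 members (49.4%), so neither side of the chromosome prevailed. The nearest neighbour was at least 600 bp wide for 1757 members (91.4%), whereas 85.1% of all autosomal regions were. It was 400 bp wide for 9 members (0.468%), a width held by 11.9% of all regions, and wider than 5000 bp for 233 (12.1%), against 8.17% of all regions. Its median width was 1600 bp (quartiles 800 and 3200), and that of wider regions 1400 bp (800 and 2600). Wider regions that had a gap of 1000 to 1400 bp to any region were broader, with a median of 2000 bp (1000 and 3600).

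When regions with gaps of up to 1400 bp were joined into chains, the members fell into 1819 chains. In 1501 of these a single member stood beside a single wider region, and 248 chains with 309 members held 3 or more regions. No wider region was present in 74 chains with 125 members: 27 members stood alone, 43 chains were pairs of members and 4 were rows of 3 members, 1 of them closest to Cblb, a ubiquitin ligase gene named after its value was seen. A member was the nearest neighbour of another member in 157 cases (8.16%), although members were 2.95% of all regions.

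The 27 members with no region within 1400 bp had gaps of 1600 bp in 1 case, 2000 bp in 12 and more in 14. The 5 farthest were those in introns of Nebl (gap 68000 bp), Micall1 (17800 bp), an endosomal adaptor, Prkd1 (14400 bp), protein kinase D1, and Fmn2 (12200 bp), an actin-nucleating formin, and the one upstream of Csf2ra (40000 bp), which lay close to the end of the assembled chromosome 19. Gaps above 20 kb, present in 16.8% of wider regions, were found in 2 members (0.104%, 0.0126 to 0.375). Of the 20 words of 32 bp looked up in each bin, 80% were unique in the genome for the Nebl bin and 70% for the Prkd1 bin, against 100% for the other three.

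Members were nearer to genes than the wider regions as a whole. The median distance from midpoint to the nearest annotated TSS was 7240 bp (6506 to 8132) for members and 11517 bp (11303 to 11751) for wider regions, and 29139 bp for all autosomal 200 bp bins. By distance, 488 members (25.4%, 23.4 to 27.4) were promoter regions within 2 kb of a TSS, 865 (45.0%, 42.7 to 47.2) proximal regions at 2 to 20 kb, 461 (24.0%, 22.1 to 26.0) distal regions at 20 to 100 kb, and 109 (5.67%, 4.68 to 6.80) intergenic regions farther away. The corresponding shares of wider regions were 23.5%, 38.3%, 29.2% and 9.005%. The proximal share was 6.71 points higher in members (4.46 to 8.97), the distal share 5.24 points lower (difference -5.24, -7.13 to -3.25) and the intergenic share 3.34 points lower (difference -3.34, -4.31 to -2.19), while the interval of the promoter difference, 1.87 points, ran from -0.052 to 3.89 and so included 0. The promoter difference was positive with TSS of protein-coding genes alone (1.95, 0.086 to 3.92) and negative with distances from the nearest edge (-4.06, -6.00 to -2.03), which brings wide regions closer to a TSS by construction. The direction of the median distance and of the intergenic share was the same on each of the 19 autosomes, and that of the promoter share on 14.

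**Figure D2:**
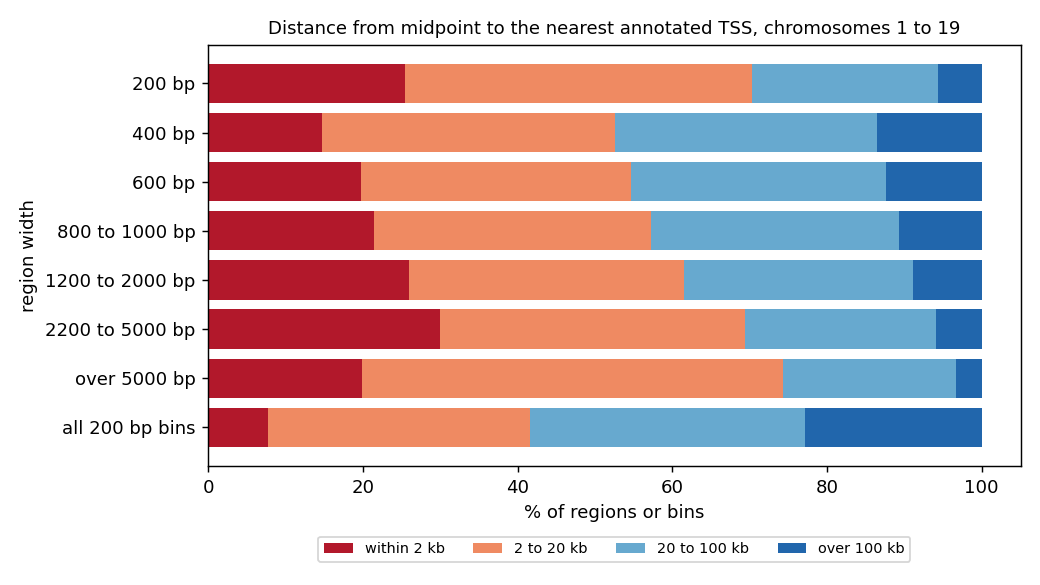
Stacked shares (x axis, percent) of regions by distance of the midpoint to the nearest TSS, for each width class (y axis) and for all autosomal 200 bp bins without N. The 200 bp regions, with 25.4% within 2 kb and 5.67% beyond 100 kb, resemble regions of 2200 to 5000 bp (30.0% and 5.85%) more than those of 400 bp (14.7% and 13.6%).

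Members stood apart from the narrowest of the wider regions. From 400 bp to the class of 2200 to 5000 bp, the wider the regions the larger was the promoter share, which rose from 14.7% to 30.0%, and the smaller the intergenic share, which went from 13.6% to 5.85%. In the class over 5000 bp the promoter share was lower again, at 19.9%, and the intergenic share was 3.27%. Members, though narrower than all of these, had a promoter share 10.7 points above that of the 400 bp regions (8.62 to 12.8) and a lower intergenic share (difference -7.90 points, -9.13 to -6.55). The median distance to a TSS was 18046 bp for the 400 bp regions and 7568 bp for those of 2200 to 5000 bp.

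Because nearly every member stood beside a larger region, the members were also compared with sets of like spacing, which were chosen after the data were seen. The nearest neighbours of the members had a median TSS distance of 7626 bp (6708 to 8264) and an intergenic share of 5.67%, values that lie close to the members' by construction, since 98.6% of the members stood within 1400 bp of them. The 5324 wider regions that themselves had a neighbour 1000 to 1400 bp away had a median distance of 6603 bp (6062 to 7196) and an intergenic share of 4.66%, which differed from the members' by 1.01 points (-0.111 to 2.26). Their gaps were measured to any region, members included. The sets therefore overlap, and at least 1501 of the 5324 were themselves nearest neighbours of members. In both sets the promoter share was higher than in members, by 4.52 points for the neighbours (members minus neighbours -4.52, -7.34 to -1.70) and by 4.11 points for the spaced wider regions (difference -4.11, -6.38 to -1.78). Against the spaced wider regions, the proximal difference was 2.18 points (-0.407 to 4.77) and the distal difference 0.926 points (-1.26 to 3.18). The higher proximal and the lower distal and intergenic shares seen against all wider regions were thus not resolved there.

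**Figure D3:**
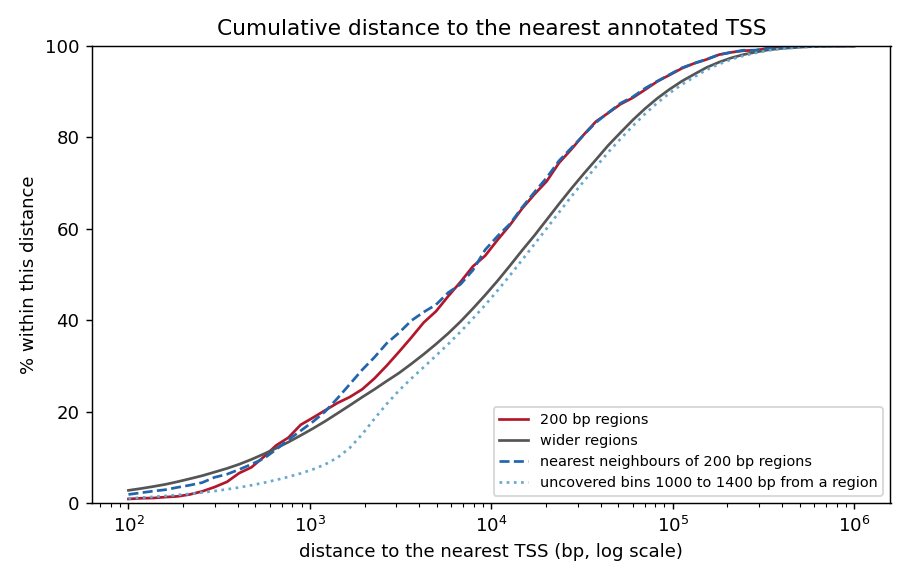
Cumulative share of regions or bins (y axis, percent) within a distance of the nearest TSS (x axis, bp, log scale), for the 200 bp regions, wider regions, the nearest neighbours of the 200 bp regions, and uncovered bins 1000 to 1400 bp from a region. The 200 bp regions and their neighbours share a curve above 10 kb (medians 7240 and 7626 bp), and both lie above the wider regions there.

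Uncovered bins at 1000 to 1400 bp from any region, 322208 in number, served as the ground in which a member of the usual gap could have been called. Their promoter share was 15.7%, or 9.65 points below that of members (7.75 to 11.7), and their intergenic share 9.83%, or 4.16 points above (members minus bins -4.16, -5.11 to -3.03). The interval of the proximal difference, 0.832 points, included 0 (-1.39 to 3.07). A closer comparison took for each member its mirror bin, as far from the same neighbour on the neighbour's other side. A mirror bin outside regions existed for 1761 members. The promoter share was 21.0% for mirror bins, 4.42 points below that of all members (1.70 to 7.13), the proximal share was 49.8%, 4.82 points above (difference -4.82, -8.03 to -1.59), and the distal and intergenic shares differed by 0.577 (-2.18 to 3.32) and -0.181 points (-1.71 to 1.33). These differences, and those of genic position below, set all 1923 members against the mirror bins without pairing. Among the 1761 members with a mirror bin, the promoter share was 25.8% and the proximal share 44.1%. All differences from the nearest neighbours were likewise unpaired.

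Some members and their neighbours lay on opposite sides of a TSS. The stretch between a member and its neighbour held a TSS in 323 of the 1740 cases with a gap of up to 1400 bp and an uncovered mirror bin (18.6%, 16.8 to 20.5), whereas the equally long stretch on the neighbour's other side held one in 134 (7.70%, 6.49 to 9.06). The member bin itself held a TSS in 18 cases (0.936%, 0.556 to 1.48), the mirror bin in 53 of 1761 (3.01%, 2.26 to 3.92), and the central bin of a wider region in 2.79%. In these 323 cases the neighbour lay on one flank of an uncovered start site and the member on the other, as at Ifngr2. Where every TSS in the stretch was on the same strand, the member was on the upstream side in 216 of 289 cases (74.7%, 69.3 to 79.7), and in 34 of the 323 both strands had a TSS.

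An uncovered TSS between regions was not particular to the members. Of the 2026 stretches of 1000 to 1400 bp between a pair of wider regions, 489 (24.1%, 22.3 to 26.1) held a TSS, more than the 339 of 1881 stretches of this length next to a member (18.02%, 16.3 to 19.8). The neighbour of a member covered a TSS itself in 296 cases (15.4%, 13.8 to 17.1), about as often as wider regions did (15.7%, 15.4 to 16.0). Where it covered none, the member stood on the side of the closest TSS in 203 of 316 cases (64.2%, 58.7 to 69.5) when the neighbour was within 2 kb of that TSS, in 376 of 751 (50.1%, 46.4 to 53.7) at 2 to 20 kb and in 260 of 560 (46.4%, 42.2 to 50.7) farther away.

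**Figure D4:**
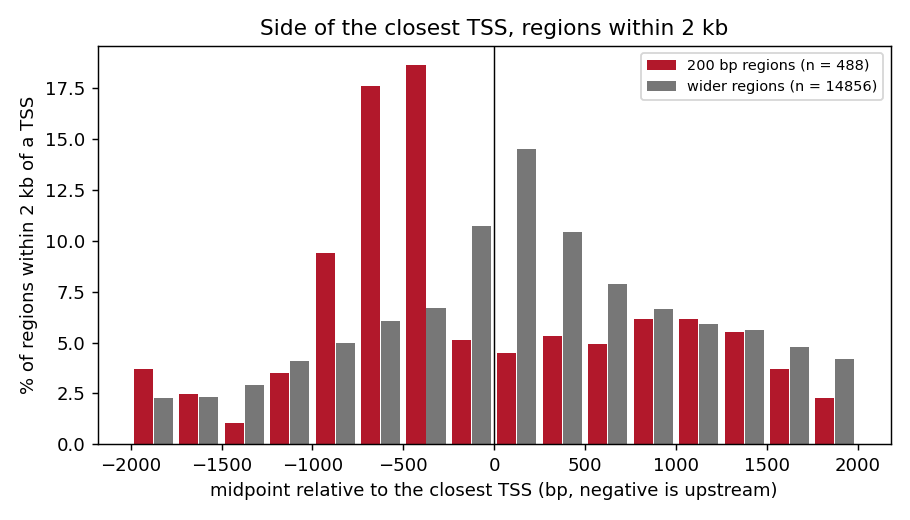
Share of the regions within 2 kb of a TSS (y axis, percent) by position of the midpoint relative to the closest TSS in steps of 250 bp (x axis, bp, negative is upstream), for 488 regions of 200 bp and 14856 wider regions. The 200 bp regions pile up at 250 to 1000 bp upstream, and 38.5% of them lie downstream of the TSS against 59.97% of the wider regions.

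Of the 488 members within 2 kb of a TSS, 188 (38.5%, 34.2 to 43.0) were downstream of it, against 59.97% (59.2 to 60.8) of the wider promoter regions. A distance of 500 to 1000 bp was the most frequent and held 186 members (38.1%, 33.8 to 42.6), against 25.6% of wider promoter regions, while 164 members (33.6%, 29.4 to 38.0) and 42.3% of wider ones were within 500 bp. The closest TSS was that of a protein-coding gene for 1539 members (80.0%, 78.2 to 81.8) and for 75.5% (75.2 to 75.9) of wider regions.

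Protein-coding start sites lay within 12 members, and each of these had its neighbour 1200 bp away, so none was the sole region within 5 kb of its TSS. They included, named after their values were seen, Hspa5, which encodes the endoplasmic reticulum chaperone BiP, with a start inside the coding part of the gene and a neighbour of 4200 bp, and Uncx, a homeobox transcription factor gene, whose neighbour was also 200 bp wide. GC content over these 12 ranged from 36.5% at Hspa5 to 63% at Yjefn3.

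Within genes, members were mostly intronic. Of the 1923, 1130 (58.8%, 56.5 to 61.0) lay in introns, 622 (32.4%, 30.3 to 34.5) outside genes, 77 (4.00%) in coding sequence, 56 (2.91%) in a UTR and 38 (1.98%) in other exons. The central bins of wider regions were intronic in 53.4%, outside genes in 35.0%, coding in 5.99% and in a UTR in 3.86%. The intronic share was 5.40 points higher in members (3.15 to 7.61), but only 2.21 points higher than in regions of at least 1000 bp, with an interval that included 0 (-0.050 to 4.45), and the share in any exon was 2.77 points lower (8.89% against 11.7%, difference -2.77, -3.98 to -1.39). All autosomal bins were intronic in 36.8% and outside genes in 58.0%. On 17 of the 19 autosomes the intronic share was higher in members, and on 12 the share outside genes was lower.

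The direction also depended on the regions compared. The share outside genes was lower in members than in all wider regions (difference -2.63, -4.72 to -0.474) but not than in regions of at least 1000 bp (1.81, -0.291 to 3.98). Against the nearest neighbours, of which 65.4% were intronic and 24.3% outside genes, the intronic share of members was 6.66 points lower (difference -6.66, -9.70 to -3.59) and their share outside genes 8.06 points higher (5.22 to 10.9). Against wider regions with a neighbour at 1000 to 1400 bp the differences were -6.17 (-8.72 to -3.64) and 7.59 points (5.22 to 10). Against mirror bins the intronic share did not differ beyond its interval (58.4% in mirror bins, difference 0.330, -2.85 to 3.51), the share outside genes was higher in members (32.4% against 29.1%, difference 3.27, 0.287 to 6.24), and exons of any kind were less frequent in members (8.89% against 12.5%, difference -3.60, -5.62 to -1.61), with coding sequence at 4.00% against 6.93% (difference -2.92, -4.43 to -1.46).

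The base composition of members was narrow around that of the other regions. Mean GC content was 46.0% (SD 6.75) in members and 46.6% (SD 8.92) in the central bins of wider regions, a difference of -0.611 points (-0.920 to -0.301), and 41.9% in all autosomal bins. CpG dinucleotides averaged 2.57 per bin (SD 2.62) in members and 3.41 (SD 4.56) in wider regions (difference -0.842, -0.965 to -0.720). With both limited to bins over 2 kb from a TSS, the sign of the GC difference turned, to 0.811 points (0.472 to 1.15). Members were also richer in GC than their neighbours by 0.664 points (0.193 to 1.14) and than their mirror bins by 0.736 points in pairs (0.253 to 1.22), with the member higher in 961 pairs, the mirror bin in 765 and both equal in 35, whereas the mean CpG count was lower than in the mirror bins (difference -0.352, -0.600 to -0.104) although the member had more CpG in 799 pairs and the mirror bin in 649, with 313 equal.

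Short words of members were nearly all unique in the genome. Of the 20 words of 32 bp per bin, 97.7% occurred once in members and 97.6% in wider regions (difference 0.105 points, -0.269 to 0.479), against 84.7% in a sample of 23948 autosomal bins and 92.7% in 644 sampled uncovered bins at 1000 to 1400 bp from a region. The sign depended on width: -0.727 points against regions of 400 to 1000 bp (-1.10 to -0.350) and 0.565 against those of at least 1000 bp (0.185 to 0.945). The mirror bins had 92.0%, and the paired difference was 5.59 points (4.58 to 6.59). The bins directly beside members, which were not called, had 96.3%. Members with few unique words were listed too, down to 50% in A930001N09Rik and 60% in Glis3 among those of the genes named here. The sources used here give no rule on reads that match several places, and the part of read placement in these differences was not tested.

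Of 9 short motifs of factors active in islets or in the cytokine response, each searched as exact letters on both strands, 792 members (41.2%, 39.0 to 43.4) held at least 1, as did 42.6% of wider central bins. AP-1 sites (TGANTCA), bound by Fos and Jun proteins, were in 139 members (7.23%), NF-kB sites (GGNNTTTCC) in 72 (3.74%), GAS elements (TTCNNNGAA), the interferon-gamma activated sites, in 122 (6.34%) and ISRE cores (TTCNNTTTC) in 112 (5.82%). The E-box CAGCTG, a word bound by several basic helix-loop-helix factors, was in 225 (11.7%), the E-box CACGTG in 54 (2.81%), the forkhead word TGTTTAC of Foxa factors in 61 (3.17%), the homeodomain word TAATTA in 95 (4.94%) and the MARE core TGCTGAC of Maf factors in 79 (4.11%). In all autosomal bins these shares were 5.96%, 2.93%, 7.36%, 7.83%, 7.37%, 1.99%, 2.98%, 7.15% and 2.73% in the order named. A match is a description of letters and not of binding, and a match of MARE or AP-1 can overlap others.

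**Figure D5:**
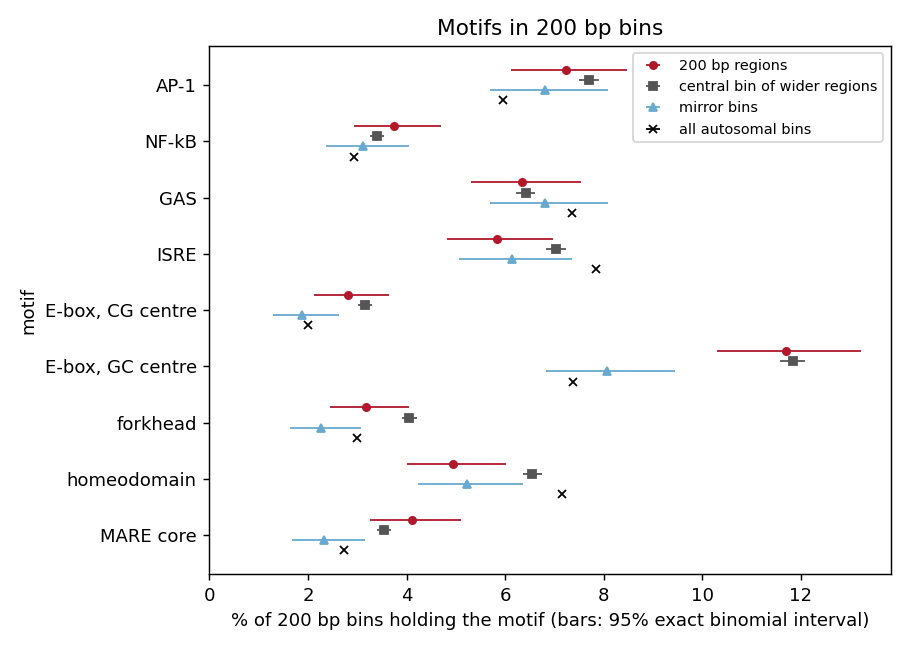
Share of 200 bp bins with at least 1 match of each motif (x axis, percent, bars are 95% exact binomial intervals) for the 200 bp regions, the central bins of wider regions, the mirror bins and all autosomal bins (y axis, motifs). The intervals of members and wider regions overlap for most motifs, and the E-box with a GC centre is the clearest difference from mirror bins (11.7% and 8.06%).

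Of these motifs, 2 were less frequent in members than in wider regions. ISRE cores were 1.20 points less frequent in members (difference -1.20, -2.18 to -0.045) and the homeodomain word 1.60 points less (difference -1.60, -2.51 to -0.526), and the intervals of the other 7 motifs included 0. The intervals of both included 0 with the first bin of each wider region in place of the central one (ISRE -0.954, -1.94 to 0.200, homeodomain -0.541, -1.44 to 0.535), and also against the spaced wider regions (-1.09, -2.29 to 0.223 and -0.751, -1.85 to 0.464) and the nearest neighbours (-1.25, -2.81 to 0.308 and -0.728, -2.16 to 0.695), while the ISRE difference itself stayed of like size and that of the homeodomain word was smaller. Against the 400 bp regions, 5 motifs were less frequent in members with intervals that left out 0: AP-1 (difference -1.43, -2.68 to -0.043), ISRE (-1.84, -2.98 to -0.568), the E-box CAGCTG (-2.03, -3.60 to -0.346), forkhead (-1.12, -1.96 to -0.143) and homeodomain (-1.26, -2.30 to -0.079). For NF-kB the difference from all wider regions was 0.355 points (-0.419 to 1.31), for GAS -0.073 (-1.10 to 1.12) and for AP-1 -0.471 (-1.57 to 0.791). Against mirror bins, in pairs, the E-box CAGCTG was 3.46 points more frequent (1.501 to 5.43; in the member alone for 187 pairs, in the mirror bin alone for 126), and the MARE core 1.59 points (0.425 to 2.76). The E-box CAGCTG was likewise 3.03 points more frequent than in uncovered bins 1000 to 1400 bp from a region (1.66 to 4.54), as were AP-1 by 1.63 points (0.551 to 2.88), the MARE core by 1.24 (0.440 to 2.23) and NF-kB by 0.826 (0.063 to 1.77).

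Members were spread over many genes. Of the 1923, 1747 had the TSS of a protein-coding gene within 100 kb and were assigned to 1507 of the 15234 such genes with any region. Of these 1507, 1304 had 1 member, 173 had 2 and 30 had 3 or more. No gene had over 4. The 7 genes with 4 were Auts2, Glis3, Mast4, Pex5l, Snd1, Tbc1d22a and Upp2, and they are long genes, from 193.6 kb (Pex5l) to 1106 kb (Auts2). Members were 4 of the 12 regions assigned to Tbc1d22a, a Rab GTPase-activating protein gene, and 4 of the 37 assigned to Auts2, a regulator of neuronal transcription. In Upp2, which encodes a uridine phosphorylase, the 4 intronic members formed a row of pairs, with gaps of 1200 bp within each pair, at chr2:58610601-58610800, chr2:58612001-58612200, chr2:58613801-58614000 and chr2:58615201-58615400. Of the 23 genes tied at 3 members, the first 3 by name are described with these. Pairs of members 1200 bp apart were also found in introns of Auts2, of Glis3 and of A930001N09Rik, and a further pair assigned to 3300002A11Rik lay in an intron of the forkhead gene Foxn3. In Mast4, a kinase gene, members flanked a region of 400 bp with gaps of 1000 and 1200 bp. Of the members assigned to Snd1, a nuclease-like RNA-binding protein, 3 were intronic and 1 overlapped coding sequence, and of those of Pex5l, a peroxin-related protein of neurons, 3 were intronic and 1 was in a UTR of Usp13. Of the 3 members assigned to 1700081L11Rik, 1 lay upstream of the gene, 1126 bp from its TSS.

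The shares of members among the regions of the gene lists ran from 0 to 5.56%. The 2.95% of all autosomal regions lay inside every list's interval, and the intervals were wide, so no list was resolved from it. Members were 25 of the 598 regions assigned to the 107 annotated genes of the 5 lists, at 16 genes. Their gap was 1200 bp in 24 of the 25, 15 were intronic and 7 outside genes, and 20 had unique words throughout.

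Among cytokine signalling genes, 10 of 185 regions were members (5.41%, 2.62 to 9.72). They were at 6 of the 32 listed genes with a region, beside 1507 of the 15234 protein-coding genes with a region. Il1r1 had 3: besides the intronic bin shown, 1 overlapped coding sequence at chr1:40350201-40350400, so that the region of 22000 bp was flanked by a member on each side at 1200 bp, and 1 lay 51225 bp upstream. Ifngr2 had 2, at 617 and 13817 bp upstream of its TSS, and Irf2 also 2. The members of Relb and Nfkb2, subunits of NF-kB, were in other genes, in a UTR of Clptm1 and in an intron of Gbf1, and Nfkb2 was 72127 bp away. No member was among the 46 regions of the chemokine and cytokine genes, such as Ccl2 and Cxcl10, which allows a share of up to 6.52% by 3 counts of the total and up to 7.71% by the exact interval.

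Among genes of β-cell function, 5 of 140 regions were members (3.57%, 1.17 to 8.14). Among them were intronic members in Cacna1c and Cacna1d, which encode L-type calcium channel subunits, and 1 lying 76192 bp upstream of Pcsk2, a prohormone convertase. The member assigned to Kcnj11, the pore of the ATP-sensitive potassium channel, overlapped coding sequence of the neighbouring Abcc8, the regulatory subunit of the same channel, 1200 bp from a region of 12800 bp. The Cacna1c member, 1749 bp from the TSS, held an E-box CACGTG and the Cacna1d member a MARE core.

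Islet transcription factor genes had 7 members in 173 regions (4.05%, 1.64 to 8.16), at 3 of the 19 genes with a region. Glis3, a zinc finger factor expressed in β-cells, had 4, all intronic, and 2 of these were each other's nearest region. Nkx6-1, a homeodomain factor of β-cells, had a pair of members 1200 bp apart, at 35056 and 36456 bp upstream, and Isl1 had 1, at 48196 bp on the downstream side. Of the trithorax genes, whose products write and read H3K4 methylation, Mll1 had an intronic pair 1200 bp apart and Mll3 had 1 intronic member with a gap of 1000 bp, together 3 of 54 regions (5.56%, 1.16 to 15.4).

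Chromosomes held similar shares of members, from 2.34% of the regions of chromosome 10 (1.86 to 2.90) to 3.37% of those of chromosome 2 (2.90 to 3.89), and chromosomes of 1 library are not replicates.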

How the data were processed

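H3K4me1 was profiled in cytokine treated islets in 1 pooled ChIP-seq library. The authors aligned reads to mm9 (Bowtie2 2.2.1 per the submitters' processing notes), called regions with ChromHMM, later merged the loci of both conditions and removed weak ones, without stating whether the deposited list precedes this, and deposited chromosome, start and end alone, with no count, signal, score or p-value, so the depth is unknown. The ChromHMM version and settings are not given in the sources used here, and RNA-seq of the series was not used here. The start positions were raised by 1 to count from 1.

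Members were all autosomal regions of 200 bp. Gaps were measured edge to edge, and TSS distances from midpoints to 82144 GENCODE M1 start positions on the genome of the same build, divided at the study's limits of 2, 20 and 100 kb. Genic position took coding sequence first, then UTR, other exon and intron. Wider regions were represented by their central 200 bp bin. Uniqueness was read from 20 words of 32 bp per bin, 10 bp apart, on both strands. Genes were the protein-coding gene with the closest TSS within 100 kb. Genes named were the 10 with the most members (ties by name), list genes with a member, TSS-covering members without another region within 5 kb (none met this) and the 5 farthest members. Of the list genes with a member, 1 is not reported here. The members, lists and tests were chosen with earlier results of these data known, and the sets of equal spacing and mirror bins after the spacing was seen. With 1 library no test was possible, so shares carry 95% exact binomial intervals, medians order-statistic intervals, differences of shares Newcombe intervals and differences of means normal intervals, which treat neighbouring regions as independent. The steps were tested on simulated regions. Alternatives concerned width limits, TSS and gene sets, reference points and the regions compared. Numba 0.67.0, scipy 1.17.1, matplotlib 3.10.9, pandas 2.3.3 and numpy 2.4.6 were run under Python 3.11.15.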

Additional observations from a re-analysis of the deposited data

How the results depend on the processing

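Values are members minus the set compared, in percentage points unless a unit is given. Of 239 values of 37 results under alternatives, 127 stayed within their margin, 90 moved and 22 reversed, meaning that a difference whose interval left out 0 changed sign. Differences whose own interval included 0, such as the promoter share, are counted by size alone even where they change sign. Merging regions over gaps of up to 1400 bp left 27 single bins of 1923, and a limit of at most 400 bp gave 9699. With that limit, the median TSS distance was 15409.5 bp, the median gap 4800 bp, and the differences were -7.92 (promoter), 3.33 (distal), 3.64 (intergenic), 5.61 (gap of at most 1 kb), 4.02 (gap over 20 kb), 9.004 (outside genes) and -5.34 (intron), and each of these differences except the promoter share, whose main interval included 0, reversed. The proximal difference was then 0.962, with an interval that included 0 (-0.087 to 2.02). The shares of regions up to 400 bp were 14.9% of all autosomal regions, 8.70% for chemokines and cytokines (2.42 to 20.8), 8.57% for β-cell function (4.51 to 14.5), 8.65% for cytokine signalling (5.02 to 13.7), 13.3% for islet transcription factors (8.62 to 19.3), and 13.1% and 17.5% for the lowest and highest chromosome. At this limit the intervals of β-cell function and cytokine signalling lay below the share over all regions, which was inside every list's interval at 200 bp.

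Against regions of 400 to 1000 bp the differences were 6.36 (promoter), -6.32 (intergenic), -23.0 (gap over 20 kb), -10.6 (outside genes), 11.2 (intron), -0.292 (GC, -0.610 to 0.026, so that its interval included 0) and -0.727 (unique words). Against regions of at least 1000 bp they were -0.670 (promoter), -1.72 (intergenic), -13.3 (gap over 20 kb), 1.81 (outside genes, reversed, -0.291 to 3.98), 2.21 (intron, -0.050 to 4.45, so that its interval included 0) and 0.565 (unique words). Against wider regions with a neighbour 1000 to 1400 bp away they were -4.11 (promoter), 0.926 (distal, reversed), 1.01 (intergenic, reversed), 7.59 (outside genes, reversed), -6.17 (intron, reversed), 0.399 (GC, reversed) and 0.913 (unique words). Against the nearest neighbours they were -4.52 (promoter), 0.520 (distal, reversed), 0 (intergenic and gap over 20 kb), 8.06 (outside genes, reversed), -6.66 (intron, reversed), 0.208 (UTR, reversed), 0.664 (GC, reversed) and 0.156 (forkhead).

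Against uncovered bins 1000 to 1400 bp from a region they were 9.65 (promoter), -8.03 (outside genes), 7.64 (intron), 0.351 (UTR, reversed), 1.53 (GC, reversed), 0.336 CpG per bin (reversed), 4.93 (unique words), 1.63 (AP-1), 3.03 (E-box CAGCTG), 0.512 (forkhead) and 5.50 (CG). Against mirror bins they were 0.736 (GC, reversed), 5.59 (unique words), 0.965 (E-box CACGTG and forkhead), 3.46 (E-box CAGCTG), -0.284 (homeodomain), 1.59 (MARE core) and 3.58 (CG).

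Distance from the nearest edge moved the promoter difference to -4.06 (-6.00 to -2.03), a change of sign. With TSS of protein-coding genes the intergenic difference was -5.72 and the median distance 9402 bp. Gaps from midpoint to midpoint gave a median of 2100 bp and differences of -1.61 (at most 1 kb) and -18.5 (over 20 kb). The whole wider region gave -0.00071 (outside genes) and 19.01 (intron), and bins over 2 kb from a TSS gave 0.811 (GC, reversed). Except where fewer or other regions enter by construction, the cause was not tested.

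No paired analysis was possible because there was 1 library, with no samples to pair and no replicate to leave out (the pairs of members and mirror bins are bins of that library). The share of repeat-masked sequence was not run because the reference is not masked. Region edges are known to 200 bp at best, depth is unknown, and neighbouring regions are not independent, so intervals are too narrow by an unknown amount.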
